A study of Macaca mulatta and Mus musculus with 5 samples.

Results

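The replication-dependent histone genes of the mouse were examined in immune cells of the meninges, the membranes around the brain, which hold developing B cells. The members are all rows of the mouse count table whose symbol starts with Hist1h or Hist2h, 64 of 31017 genes. They comprise 6 linker histone H1 genes, 17 H2A, 17 H2B, 12 H3 and 12 H4 genes. Of the 64, 63 had at least 1 unique molecular identifier (UMI, a tag that marks 1 captured RNA molecule) in the cells kept, and 59 had at least 100.

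The cells came from the meninges of male C57BL/6 mice of 2, 21 and 48 days, which were labelled with hashtag antibodies and pooled into 1 library made with 10x chemistry that captures RNA by the poly(A) tail. The sort is given in the series' design text as CD45–CD11b–, and 30000 cells were loaded. Cells could not be assigned to an age or an animal here, so the library is 1 sample and ages cannot be told apart. No test between groups was possible, and every interval below is an exact 95% interval that covers counting error only. The macaque channels of the study were not used.

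Chromatin wraps DNA around core particles of H2A, H2B, H3 and H4, and H1 binds the linker DNA between them. Cells make the bulk of their histones in S phase from clustered genes, whose messenger RNA ends in a conserved stem-loop in place of a poly(A) tail. SLBP, the stem-loop binding protein, carries these messages through processing and translation, and they are degraded when DNA synthesis stops. Some cluster genes can also give polyadenylated messages past the stem-loop, which are seen in cells that have left the cycle. Developing B cells divide at the pro-B stage and, after the heavy chain is assembled, as large pre-B cells with a surrogate light chain (SLC), before they rest as small pre-B cells.

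In the GENCODE M21 annotation of mm10, 54 members lie on chromosome 13 between 21715763 and 23934851, and 10 on chromosome 3 between 96219865 and 96270132. A stem-loop was searched for in the sense strand of each member's longest transcript as GGNNNNTNNNNNNNCC, where the last 6 bases must be the reverse complement of the first 6. It was present in 42 of 64 members, against 1.81% of 21813 other protein-coding genes, whose longest transcripts are longer (median 2687 against 532 bases). Several transcripts without it, such as those of Hist1h1b, Hist1h2ak and Hist1h3i, have 0 annotated bases past the stop codon. For these the search did not cover sequence past the stop codon, so it does not show that the stem-loop is absent. The stem-loops of 5 members are shown with up to 5 bases on each side because they include the members with the most UMIs, the clearest exception among the members, and the 3 most frequent forms. Capitals mark the stem-loop.

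Hist1h2ae: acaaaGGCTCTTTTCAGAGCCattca

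Hist1h2ap: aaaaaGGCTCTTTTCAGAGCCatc

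Hist1h1c: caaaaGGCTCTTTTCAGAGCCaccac

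Hist1h3c: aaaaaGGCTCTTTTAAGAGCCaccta

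Hist1h4d: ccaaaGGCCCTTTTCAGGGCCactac

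The form in Hist1h2ae, Hist1h2ap and Hist1h1c was found in 23 members, of the H1, H2A, H2B and H3 families. The form in Hist1h4d was found in 6 members, all of H4, and the form in Hist1h3c in 6 members of H1, H2B and H3. The annotated transcript of Hist1h2ap ends 3 bases after the stem-loop and that of Hist1h3c 74 bases after it. The transcript of Hist1h2ae runs on for 151 bases, of Hist1h4d for 770 and of Hist1h1c for 840. Both leading H2A genes also carry a run of A just before the stem-loop, marked here in capitals: 12 bases in Hist1h2ap and 8 in Hist1h2ae.

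Hist1h2ap: cccgaaaagAAAAAAAAAAAAggctctttt

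Hist1h2ae: taatctcgtAAAAAAAAcaaaggctc

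A run of at least 8 A was present in 7 of the 64 members and in 26.7% of the other protein-coding genes, over their longer transcripts. These 7 members held 44.1% of the members' UMIs. An AATAAA or ATTAAA polyadenylation signal lay in the last 60 bases of 14 members and of 73.2% of the other genes.

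Many members are close copies. In the last 500 bases of the annotated transcript, 44 members shared at least 1 stretch of 90 bases with another member, and 24 shared over 50% of such stretches. Hist1h2ap and Hist1h2ao shared 92.4% and 92.8% of theirs, with 67744 and 262 UMIs counted. Hist2h2aa1 (2973 UMIs) and Hist2h2aa2 (4 UMIs) are such a pair, as are Hist1h2br (1755 UMIs) and Hist1h2bq (1 UMI). How the counting treated reads that fit several copies is not given in these sources, so the split between near copies is uncertain. Hist1h1e and Hist1h2be overlap on the same strand. Hist1h1c, Hist1h1b, Hist1h2bc and Hist1h4d shared no such stretch with another member.

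The table held 13947 barcodes with 128.09 M UMIs, and 13267 cells were kept (median 6394 UMIs). The members took 391216 UMIs, 3146 CPM (the UMIs of a gene or list in each 1000000 UMIs of the cells summed). At least 1 member UMI was seen in 96.4% of cells, with a median of 5 UMIs per cell and a maximum of 789. The 1327 cells with the most member UMIs held 79.2% of them. Cells with at least 1 UMI of Mki67, which codes for the Ki-67 proliferation antigen, numbered 2781 (21.0%). They held 41.3% of all UMIs and 83.2% of the members' UMIs.

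Of the 59 members with at least 100 UMIs, 58 had over 50% of their UMIs in Mki67-positive cells, against 19.2% of all 12311 features with that many UMIs. A member with few UMIs outside these cells, such as Hist1h2ah, passes the limit of 100 UMIs only through them. Its high share is then partly set by the limit. The median over members was 84.6%, against 39.0% over all features. The H3 gene Hist1h3c had 97.5% of its 8222 UMIs there (97.1% to 97.8%), and the H2A gene Hist1h2ah 99.3% of 150 (at least 96.3%). The lowest were Hist2h2be at 56.1%, Hist2h4 at 55.0% and Hist1h1c at 37.1% (36.6% to 37.6% of 32262 UMIs). Every such member except Hist1h1c, the linker histone H1.2 gene, was thus past this 50% limit. Hist1h1c lay below the 41.3% of all UMIs in these cells, and Hist2h4 and Hist2h2be lay not far above it. The share describes where UMIs were found, and dependence on replication itself was not tested.

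The share differed with the annotated transcript end, which the choice of members did not use. The members are again those past the limit of 100 UMIs, which Hist1h2ah passes only through Mki67-positive cells. The 21 members whose transcript ends less than 100 bases past the stem-loop had a median of 91.8% of UMIs in Mki67-positive cells. The 19 with 100 bases or more past it had a median of 77.7%, and the 19 with no stem-loop in the annotated transcript 88.0%. These ranges overlapped widely, from 66.3% to 97.5% for the first group and from 37.1% to 91.7% for the second. For the 12 members with a polyadenylation signal near the end the median was 76.7%, and for the other 47 it was 86.9%. The group with no stem-loop mixes transcripts annotated only to the stop codon, as for Hist1h1b, with longer ones, as for Hist2h2be (2192 bases past it). Annotated ends are not measured ends, and which ends were captured in these cells was not tested.

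**Figure D1:**
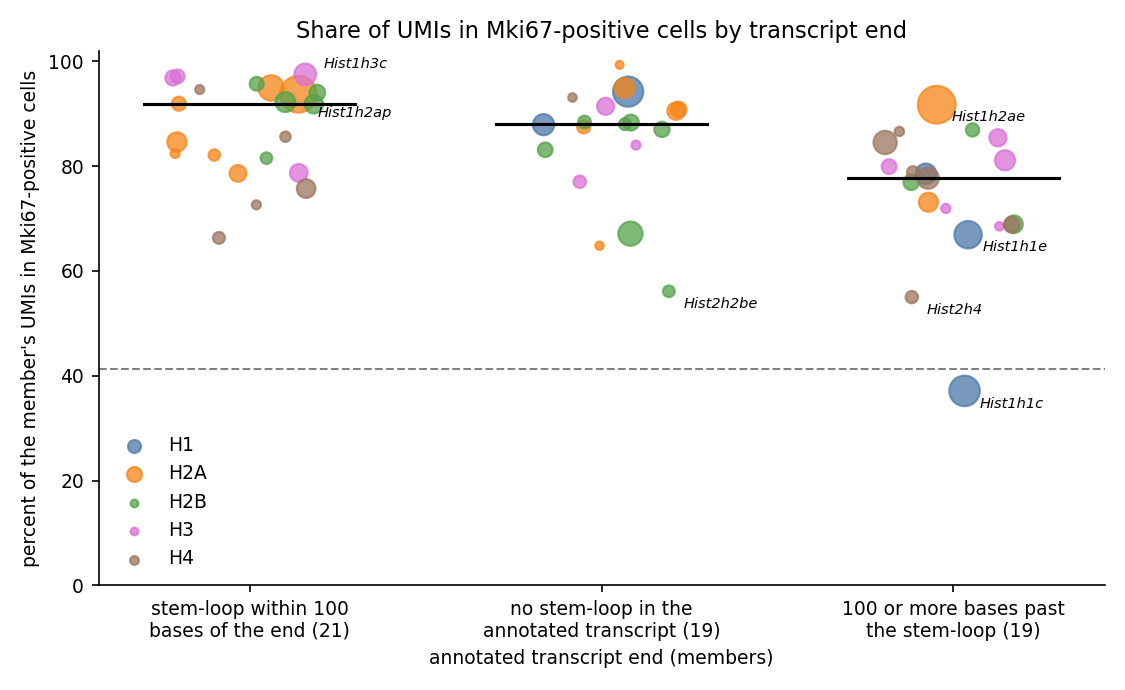
Percent of each member's UMIs in Mki67-positive cells (vertical axis) for the 59 members with at least 100 UMIs, grouped by annotated transcript end. Point area grows with the square root of the member's UMIs, colours give the histone family, black bars the group medians (91.8%, 88.0% and 77.7%) and the dashed line the 41.3% of all UMIs in those cells; Hist1h1c alone lies below that line.

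Cells were then gated on raw UMIs. A lineage needed at least 3 UMIs of its marker genes and 80% of all lineage marker UMIs, which gave 9908 B-lineage cells, 1918 T cells, 156 natural killer (NK) cells, 322 plasmacytoid dendritic cells (pDC), 105 progenitors with Mpo and 44 basophils, with 814 cells unassigned. B-lineage cells with Dntt, the terminal transferase of rearranging cells, were called pro-B. Those with Igll1, a surrogate light chain gene, but no Dntt were called SLC pre-B, and those with neither "no-SLC". Cycling means at least 1 Mki67 UMI. Of the cells without Mki67, Dntt or Igll1, those with Rag1, a recombinase gene, and no Ms4a1, which codes for the mature B-cell antigen CD20, were called small pre-B. Those with Rag1 and Ms4a1 were the Rag1 Ms4a1 B gate, those with Ms4a1 alone the Ms4a1 B gate, and the rest were ungated. Gates of fewer than 50 cells (28 cycling NK, 28 resting Mpo, 11 cycling and 33 resting basophils, 48 cycling pDC) were counted only.

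Markers that did not set the lineage gates were read as a check. Trbc2, a T-cell receptor constant gene, stood at 1632 CPM in resting T and 1556 in cycling T, at 451 in resting NK, where 63.3% of cells had it, and at 9.83 to 43.2 in the other gates. Cd8b1, a gene of the T-cell antigen CD8, stood at 289 CPM in resting T and 360 in cycling T, but also at 198 in resting pDC, where 39.1% of cells had it, and at 3.47 or less elsewhere. The resting NK gate thus held UMIs of Trbc2 but few of Cd8b1 (1.58 CPM). The resting pDC gate held Cd8b1, with Trbc2 at 28.1 CPM. Trac, another T-cell receptor constant gene, stood at 13.4 CPM in resting NK and 5.41 in resting pDC, against 527 in resting T. In the B-lineage gates Trac stood at 2.35 to 7.16 CPM. The part of T cells in the histone levels of the NK and pDC gates was not tested. Vpreb1, the other surrogate light chain gene, stood at 1476 CPM in cycling pro-B, 503 in cycling SLC pre-B and 25.4 in cycling no-SLC Ms4a1-negative cells. A stage gate set by 1 UMI also took in cells with mature markers: Cd74 stood at 1253 CPM in resting pro-B, 2542 in resting SLC pre-B and 4175 in cycling no-SLC Ms4a1-positive cells, against 160 in cycling pro-B and 8474 in Ms4a1 B cells. The part of such cells in the levels of those gates was not tested.

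The 4 cycling B-lineage gates held the highest histone levels. The summed level was 6610 CPM in cycling pro-B (6551 to 6670, 369 cells) and 6542 in cycling SLC pre-B (6504 to 6580, 685 cells). It was highest, 10737 CPM, in cycling no-SLC Ms4a1-negative cells (10675 to 10799, 835 cells), and 5484 in cycling no-SLC Ms4a1-positive cells (5411 to 5559, 345 cells). Cycling Mpo progenitors stood at 2248 (2198 to 2298, 77 cells) and cycling T cells at 1495 (1449 to 1542, 228 cells). The Mpo cells were deep, with a median of 45077 total UMIs and Mki67 at 154 CPM. No resting gate reached the levels of the cycling B gates. The value of the Ms4a1-positive gate depended on the gate: it was 3369 CPM with stage genes at 2 UMIs or more and 8898 with Mki67 at 3 UMIs or more.

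Among resting gates small pre-B was highest at 1630 CPM (1606 to 1653, 2173 cells), followed by Rag1 Ms4a1 B at 1443, ungated B at 1214, resting SLC pre-B at 1071, resting pro-B at 922 and Ms4a1 B at 802. Resting NK cells stood at 506 CPM (467 to 546), resting pDC at 443 (422 to 464) and resting T cells at 439 (428 to 450). The intervals of resting pDC and resting T overlapped, as did no other neighbours among the resting gates. After Hist1h1c was left out, small pre-B stood at 978, ungated B at 856, Rag1 Ms4a1 B at 832, resting pro-B and resting SLC pre-B at 719 each, and resting T at 354.

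**Figure D2:**
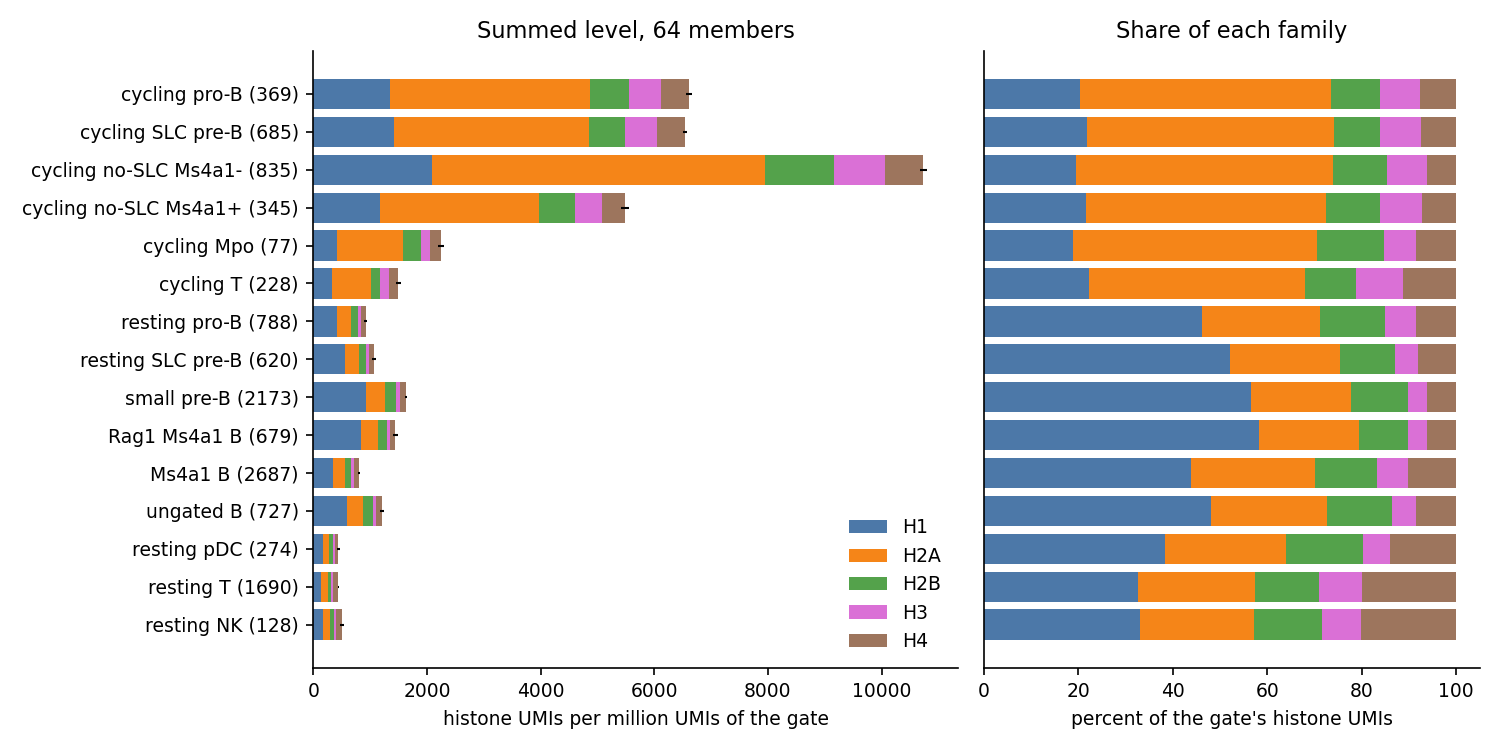
Left, summed level of the 64 members in CPM of each gate (horizontal axis), stacked by histone family, with the cell number in brackets and black 95% counting intervals on the sum. Right, each family's percent of the gate's histone UMIs; the cycling gates reach from 1495 to 10737 CPM with H2A as the largest share, and the resting gates from 439 to 1630 CPM with H1 as the largest.

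Counts per cell were spread far more widely than the gates' sums show. In cycling SLC pre-B the quartiles were 22, 108 and 288 member UMIs per cell, with a maximum of 789, at a median of 19839 total UMIs. In cycling pro-B they were 10, 31 and 233 (median total 16067). In cycling no-SLC Ms4a1-positive cells they were 3, 7 and 40, with a maximum of 567, so the median cell of that gate had no more than the median small pre-B cell. In small pre-B they were 4, 7 and 11 (maximum 70, median total 5146) and in resting T 2, 3 and 5 (maximum 21).

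After each cell was thinned to 2000 UMIs, a member UMI was left in 96.0% of cycling no-SLC Ms4a1-negative cells (94.5% to 97.3%), 94.2% of cycling SLC pre-B, 87.5% of cycling pro-B and 87.3% of small pre-B. It was left in 55.5% of resting T cells (53.1% to 57.9%), against 92.4% of those cells before thinning. The share in small pre-B and in cycling pro-B was thus alike while their mean thinned counts, 3.36 and 12.9 UMIs per cell, were not. These gates left out at most 10 cells each for lack of depth.

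Free RNA in droplets can give UMIs in cells that do not express a gene. The B-cell gene Cd79a stood at 33.3 CPM in resting T against 2862 in small pre-B. Hist1h3c stood at 2.30 CPM in resting T against 165 in cycling SLC pre-B. No level of free RNA was estimated, so its part in the low levels of resting gates was not tested. As a description, for a pair of genes chosen after their values were seen, Hist1h1c had 4.62 UMIs per UMI of the H3 gene Hist1h3b in cycling SLC pre-B (4.25 to 5.02), 69.5 in resting T (43.8 to 118) and 841 in small pre-B (443 to 1841).

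The H2A genes led in cycling cells. In cycling SLC pre-B the families stood at 3418 CPM for H2A, 1427 for H1, 648 for H2B, 560 for H3 and 489 for H4. In small pre-B they stood at 344, 923, 195, 67.2 and 100, so H1 was the largest family there. H2A made up 50.9% to 54.5% of histone UMIs in the 4 cycling B gates and 21.1% in small pre-B, while H1 made up 19.5% to 21.8% and 56.6%. In resting T cells H4 took 19.9% and H1 32.7%, and in resting NK cells 20.2% and 33.0%. Hist2h genes held 9.29% of histone UMIs in resting T and 9.81% in resting NK, against 2.83% to 3.50% in the cycling B gates. Levels here depend on capture of the transcript end and say nothing of the ratio of the proteins.

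Hist1h2ae and Hist1h2ap had the most UMIs of all members, 75865 (19.4%) and 67744 (17.3%). Hist1h2ae stood at 1378 CPM in cycling pro-B, 1308 in cycling SLC pre-B, 2581 in cycling no-SLC Ms4a1-negative and 1118 in Ms4a1-positive cells, 437 in cycling Mpo and 232 in cycling T. It stood at 148 in small pre-B, 88.0 in Ms4a1 B and 34.4 in resting T. Every cycling gate was above every resting gate for both genes. The same gates gave Hist1h2ap 1329, 1325, 1951, 1020, 492, 286, 82.3, 59.6 and 35.5 CPM in that order.

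Of the other H2A genes, Hist1h2ab followed with 15542 UMIs and 94.9% of them in Mki67-positive cells, at 518 CPM in cycling no-SLC Ms4a1-negative cells and 15.8 in small pre-B. Hist1h2ac, with 2010 annotated bases past its stem-loop, was less restricted: 56.5 CPM in cycling SLC pre-B and 40.2 in small pre-B. Hist1h2ah had no UMI in 8 of the 9 resting gates; in small pre-B that allows up to 0.258 CPM, against 2.95 in cycling SLC pre-B.

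Within H1, Hist1h1b, the H1.5 gene, was, like the leading H2A genes, higher in cycling cells, with 690 CPM in cycling SLC pre-B and 39.0 in small pre-B. Hist1h1a stood at 135 and 22.7, Hist1h1d at 107 and 35.3, and Hist1h1e at 308 and 174. Hist1h1c went the other way, with 186 CPM in cycling SLC pre-B (180 to 193) and 651 in small pre-B (637 to 666). Rag1 Ms4a1 B cells stood next at 611 CPM, then cycling no-SLC Ms4a1-negative cells at 441, ungated B at 358, resting SLC pre-B at 351 and cycling no-SLC Ms4a1-positive cells at 279. Ms4a1 B stood at 210, resting pro-B at 203 and, just below cycling SLC pre-B, cycling pro-B at 178. The other types were lower, with cycling Mpo at 124, resting pDC at 123, resting NK at 89.8, cycling T at 88.3 and resting T at 84.6.

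The small pre-B level of Hist1h1c was 3.21-fold that of resting pro-B (3.01 to 3.41), 3.10-fold that of Ms4a1 B (2.98 to 3.23) and 7.70-fold that of resting T (7.25 to 8.18). After thinning to 2000 UMIs, 49.6% of small pre-B cells had a Hist1h1c UMI (47.4% to 51.7%), 25.1% of resting pro-B, 25.7% of Ms4a1 B and 13.6% of resting T. Per cell, the mean was 3.48 UMIs in small pre-B and 4.70 in the deeper cycling SLC pre-B cells, so the order of the 2 gates depended on whether UMIs were counted per cell or as CPM. Thinned to the same depth, 30.7% of cycling SLC pre-B cells had one (27.2% to 34.3%), below small pre-B as by CPM. For cycling against resting pro-B the order was not kept: the level was lower in cycling cells by CPM (178 against 203), but the mean per cell was higher (3.48 against 1.48), and so was the thinned share, 30.4% (25.7% to 35.3%) against 25.1% (22.1% to 28.2%), with intervals that overlapped.

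**Figure D3:**
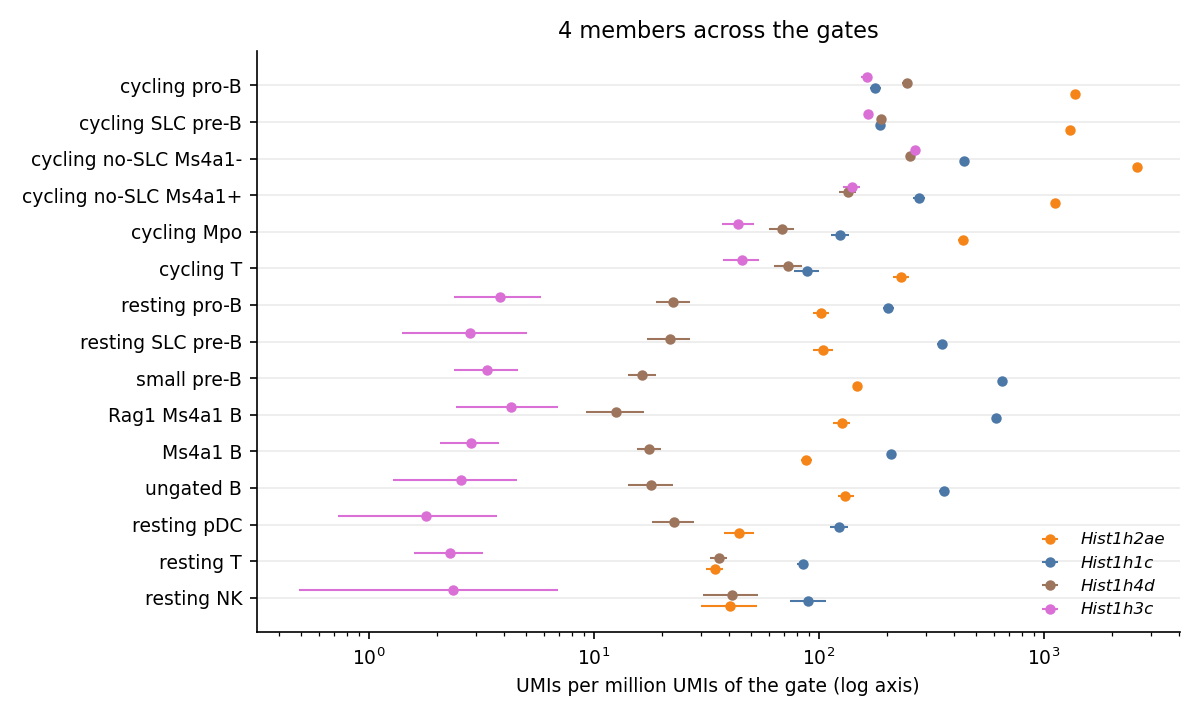
Level in CPM (log axis) of Hist1h2ae, Hist1h1c, Hist1h4d and Hist1h3c in 15 gates, with 95% counting intervals. Hist1h3c stands at 165 in cycling SLC pre-B and 3.35 in small pre-B, while Hist1h1c stands at 186 and 651; in resting T, Hist1h4d (35.8) and Hist1h2ae (34.4) lie side by side.

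Several H4 and H2B genes were spread unevenly over resting types. Hist2h4 stood at 11.8 CPM in both resting T and resting NK and at 14.8 in cycling T, but at 1.72 in small pre-B and 3.27 in Ms4a1 B. Hist1h4d stood at 35.8 in resting T and 41.0 in resting NK against 12.5 to 22.7 in the other resting gates. The H2B gene Hist2h2be was highest among resting gates in pDC, at 12.9 CPM against 2.03 to 7.48. Hist1h2bc, the H2B gene with most UMIs (12860), stood at 188 CPM in cycling Mpo and 137 in cycling SLC pre-B. By CPM the summed members of the former were 0.344-fold those of the latter (0.336 to 0.352). By mean UMIs per cell they were 0.619-fold.

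Several H3 genes differed most between cycling SLC pre-B and small pre-B. Hist1h3c stood at 165 CPM in cycling SLC pre-B and 3.35 in small pre-B, Hist1h3b at 40.4 and 0.774, and Hist1h3g at 24.6 and 0.688. The H4 gene Hist1h4f, at 4.46 and 0.086 CPM, had a fold as large, 51.9 beside the 52.2 of Hist1h3b, but from 77 and 1 UMIs (9.04 to 2075). Hist1h3e and Hist1h3a, by contrast, kept 20.1 and 10.7 CPM in small pre-B against 103 and 54.6 in cycling SLC pre-B. Hist1h3d stood at 24.7 and 12.4.

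**Figure D4:**
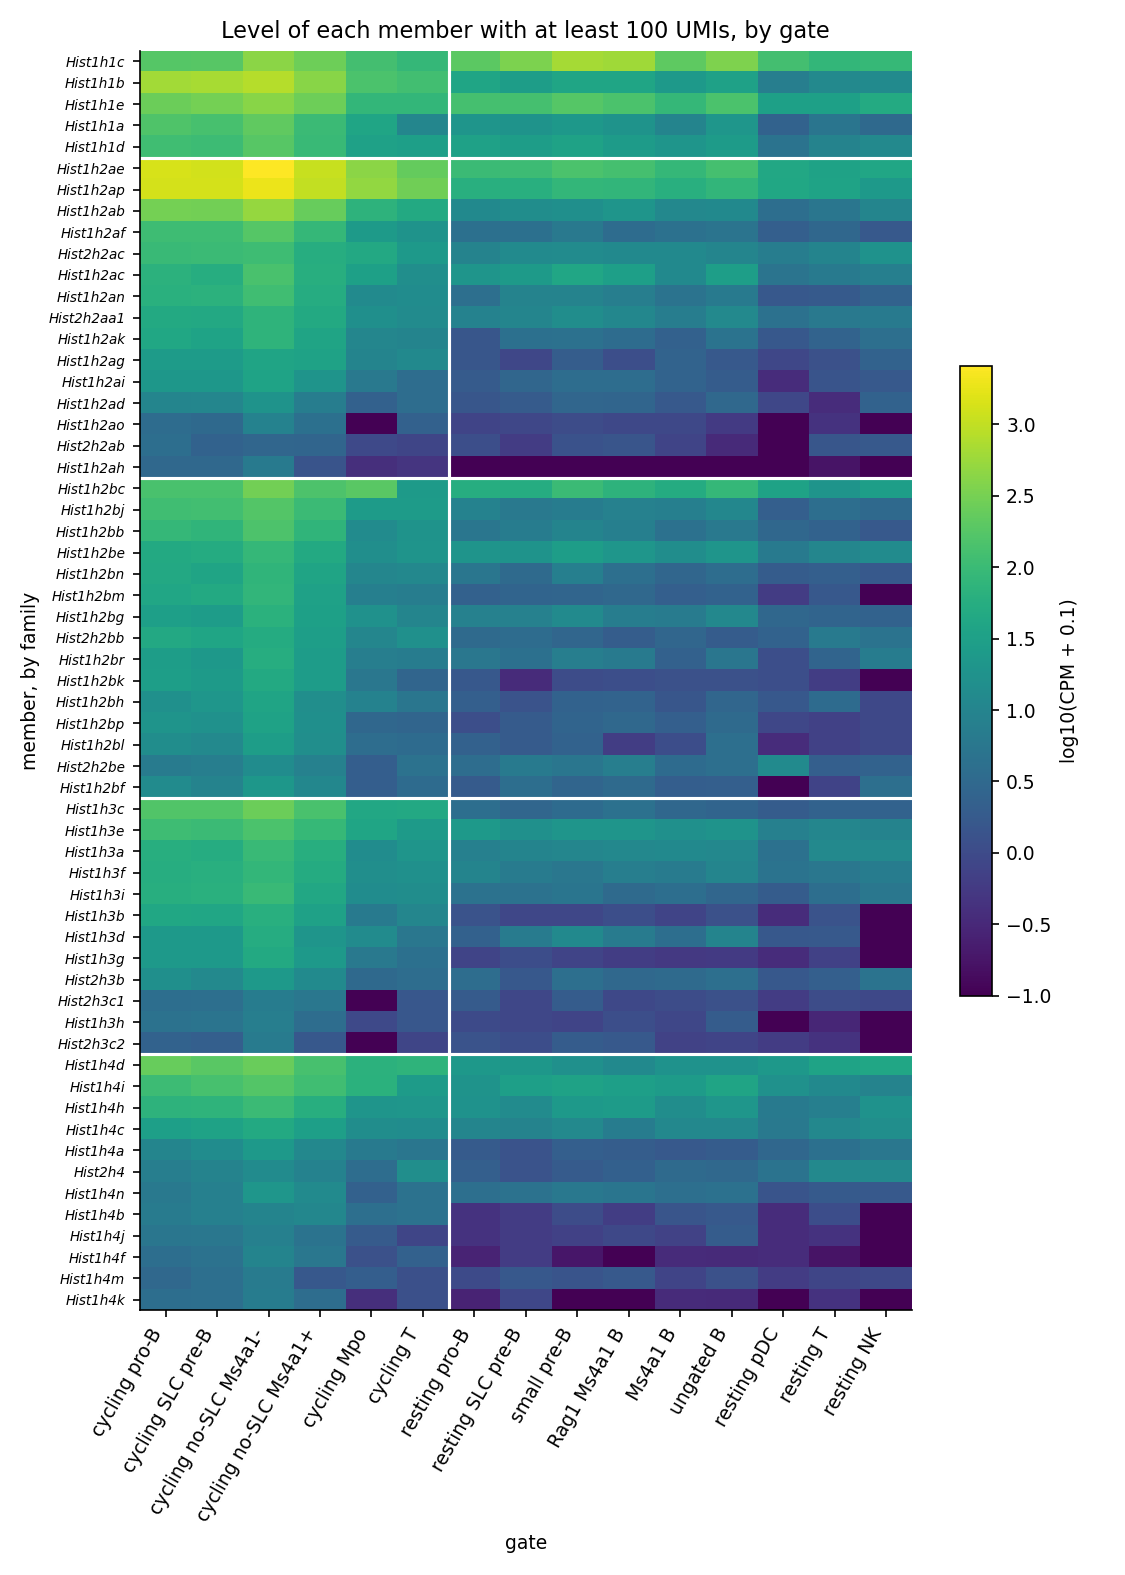
Level of the 59 members with at least 100 UMIs in each of 15 gates, as log10(CPM + 0.1), with members grouped by family and ordered by UMIs, and cycling gates left of the white line. Hist1h1c is bright in small pre-B (651 CPM) and Rag1 Ms4a1 B (611), where most members are dark, and Hist1h2ae is brightest in cycling no-SLC Ms4a1-negative cells (2581).

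Members were then called where the CPM of a pair of gates differed at least 2-fold, among features with at least 20 UMIs over both. In each pair of a cycling and a resting gate, a member near 0 at rest passes this limit only through the cycling gate and is then called higher. Hist1h2ah, with 51 UMIs in cycling SLC pre-B and 0 in small pre-B, is such a member. In cycling SLC pre-B against small pre-B, 49 of 59 members were higher, 83.1%, where 16.2% of all features were, and 1, Hist1h1c, was lower, where 19.2% of all features were. The median fold was 5.95 over members and 0.874 over all features. By family 3 of 5 H1, 13 of 15 H2A, 12 of 15 H2B, 10 of 12 H3 and 11 of 12 H4 genes were higher. The summed level was 4.01-fold higher (3.95 to 4.08), and the mean UMIs per cell 18.9-fold. These 2 gates differ in stage as well as in Mki67. Resting SLC pre-B, the gate of the same stage without Mki67, stood at 1071 CPM against 6542 in cycling SLC pre-B.

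Cycling pro-B showed much the same against resting pro-B. There 55 of 59 members were higher (8.64% of all features) and none lower (13.2%), with a median fold of 7.62, and the sum was 7.17-fold higher (6.96 to 7.37). Hist1h1c was at 0.874-fold by CPM (0.807 to 0.947) and higher in cycling cells per cell, as given above. In cycling no-SLC Ms4a1-positive cells against Ms4a1 B, 54 of the 55 members that could be compared were higher (8.63% of all features), and Hist1h1c, the remaining gene, was at 1.33-fold (1.24 to 1.43). The sum was 6.84-fold higher (6.69 to 6.99).

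In T cells 35 of 45 members were higher in the cycling gate (4.37% of all features) and none lower (2.86%), with a median fold of 2.82. A member near 0 at rest passes the limit of 20 UMIs only through the cycling gate. The sum was 3.41-fold higher (3.27 to 3.54). With Top2a in place of Mki67, 19 of 45 were higher (2.96%), and with cells weighted equally the cycling T level was 957 CPM. Of these cells 166 of 228 had a single Mki67 UMI, and in them the summed level was 478 CPM (445 to 513), near the 439 of resting T. In the 33 T cells with at least 3 Mki67 UMIs it was 4095 (3952 to 4241), at a median of 22678 total UMIs against 8136 in resting T. Within the B lineage the level was 1266 CPM in cells with 1 Mki67 UMI (549 cells), 1917 with 2 (135 cells), 2938 with 3 to 5 (210 cells), 6340 with 6 to 10 (293 cells) and 9764 with 11 or more (1047 cells). Total UMIs went with it, from a median of 6286 in the first of these ranges to 18705 in the last.

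The cycling pro-B and cycling SLC pre-B gates differed little. No member of 59 was 2-fold apart in either direction, where 6.34% of all features were higher and 1.54% lower in pro-B. The ratio of the sums was 1.01 (1.0 to 1.02). Member log2 ratios ran from -0.47 to 0.71. With 1 library this does not show that the stages are alike.

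Cells with Mki67 but without the surrogate light chain and without Ms4a1 stood above both. Against cycling SLC pre-B, 16 of 59 members were at least 2-fold higher (6.32% of all features) and none lower (4.40%). With stage genes at 2 UMIs or more the number was 26 of 59 (9.62% of all features). At 3-fold it was 1 of 59, no larger a share than the 2.14% of all features. The median fold was 1.72 over members and 1.10 over all features, every one of the 59 lay above 1, and the sum was 1.64-fold higher (1.63 to 1.65). H2B had 7 of 15 genes past 2-fold, H2A 4 of 15, H3 and H4 2 of 12 each and H1 1 of 5, Hist1h1c at 2.36-fold (2.26 to 2.47). The cells themselves held fewer UMIs, a median of 12237 against 19839, and the mean histone UMIs per cell were 0.834-fold. Among cells with 8000 to 20000 UMIs, the levels were 12771 and 8612 CPM, a ratio of 1.48.

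The ratio of histone to Mki67 UMIs was taken as a measure of phase, since Mki67 message peaks in G2 and M. It did not follow the S share of the cells in 1 direction, as given below. It was 10.5 in cycling no-SLC Ms4a1-negative cells, 9.46 in cycling pro-B, 8.95 in cycling SLC pre-B and 8.35 in cycling no-SLC Ms4a1-positive cells. It was 14.6 in cycling Mpo progenitors and 4.65 in cycling T. The Mpo value comes from the deep cells, and the T value rests on few cells with more than 1 Mki67 UMI, both as given above. The 4 B gates thus lay closer together by this ratio than by level.

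Phase was also read from 36 S-phase and 39 G2 and M genes, neither list holding a member. The 1879 Mki67-positive B-lineage cells with at least 10 UMIs of the lists were put in 5 equal ranges of the S list's share. From the lowest to the highest S share the histone level was 10087, 10491, 9669, 6295 and 1878 CPM. The range with the highest S share thus had the lowest level. Its Mki67 level was the lowest too, 269 CPM against 1360 in the lowest S range. Whether its cells were making DNA was not tested. The ratio to Mki67 was 7.42, 9.99, 11.3, 11.8 and 6.98, highest in the fourth range and low at both ends, so it did not order the ranges. By gate, S list UMIs per G2 and M UMI were 0.545 in cycling no-SLC Ms4a1-negative cells, whose ratio to Mki67 was the highest of the B gates. They were 0.82 in cycling pro-B, 0.939 in cycling SLC pre-B and 0.658 in cycling no-SLC Ms4a1-positive cells. Within ranges cells differed widely: in the lowest S range the quartiles were 1875, 9052 and 17131 CPM. These are ranges of a score, not cell types.

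The families differed in their course across these ranges. H2B was highest at the lowest S share (1456 CPM) and lower at each step, at 1041, 821, 567 and 212. H1 stood at 1734, 2068, 2069, 1426 and 558, so it was highest in the middle. Of the 15 H2B genes with at least 100 UMIs, 13 were highest in the lowest S range, as were 7 of 15 H2A, 7 of 12 H3, 3 of 12 H4 and 1 of 5 H1 genes. Over all members this was 31 of 59, 52.5%, where 43.7% of all 12283 features with at least 100 UMIs were highest in that range, so the members' count lies near the general share. The second range was the highest for 19 members (32.2%, against 8.69% of features) and the third for 9 (15.3%, against 11.3%), and no member was highest in the fourth or the last (14.9% and 21.4% of features). The H1 gene highest in the lowest range was Hist1h1c, at 501 CPM in the lowest S range and 83.1 in the highest. Hist1h1b, Hist1h1a and Hist1h1d were highest in the third range, Hist1h1b at 1019 CPM against 576 in the lowest. Hist2h2ac was 1.95-fold higher in its best range, the second, than in the lowest, 156 against 79.8 CPM.

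By CPM, the excess of the no-SLC Ms4a1-negative gate was present within each range. Its levels were 11107, 14666, 14171, 9715 and 3314 CPM, against 8946, 8336, 8127, 5516 and 1694 in cycling SLC pre-B and 10039, 10322, 7748, 5899 and 1643 in cycling pro-B. Its cells also lay more often at the low end, 277 of them in the lowest S range and 65 in the highest, against 120 and 97 for cycling SLC pre-B. Counted per cell, the order was not kept in every range. In the second, 119 cells of this gate held 24358 histone UMIs, and 114 cycling SLC pre-B cells held 27616. Their median total UMIs there were 13507 and 24075. In the third range 138 cells of this gate held 30024, and 135 cycling SLC pre-B cells held 31361. In the fourth, 95 held 16441 and 184 held 30983. In the last range the 65 cells held 2906 and the 97 held 3634. In these last ranges the order was as by CPM.

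**Figure D5:**
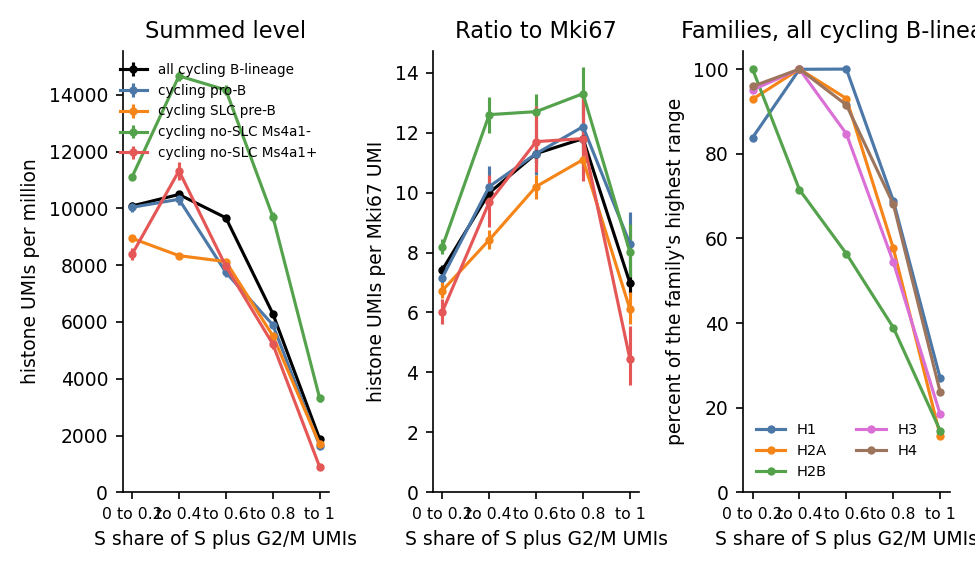
Cycling B-lineage cells in 5 ranges of the S list's share of S plus G2 and M UMIs (horizontal axis): summed histone level (left, CPM), histone UMIs per Mki67 UMI (middle), both with 95% counting intervals, and each family's level as a percent of its highest range (right). The level is lowest, 1878 CPM, at the highest S share over all cycling B-lineage cells, the no-SLC Ms4a1-negative gate lies highest in every range of the left panel, and H2B is lower at every step.

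Genes that make and process histone messages differed less between these gates than the members did. Of 20 listed genes found, 8 were at least 2-fold higher in cycling SLC pre-B than in small pre-B and none lower, where 16.2% of all features were higher and 19.2% lower, with a median fold of 1.50. Slbp, the stem-loop binding protein gene, stood at 406 against 93.6 CPM, Casp8ap2, a factor of histone transcription and processing, at 79.3 against 23.2, and Eri1, an exonuclease that acts on histone message, at 108 against 39.1. Cpsf2, part of the cleavage complex shared with other messages, stood at 150 against 180. In the no-SLC Ms4a1-negative gate against cycling SLC pre-B, none of the 20 was past 2-fold (6.32% of all features higher and 4.40% lower), and Slbp was at 1.10-fold.

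Of 16 histone chaperone genes, which deliver histones to DNA, 11 were higher in cycling SLC pre-B than in small pre-B and none lower (16.2% and 19.2% of all features), with a median fold of 3.74. Nasp, a chaperone of soluble histones, stood at 393 against 64.2 CPM and Nap1l1 at 728 against 153, while Asf1a stood at 110 against 217. For comparison, all 36 S-phase genes were higher (median fold 14.9), among them Pcna, the replication clamp, at 553 against 69.0 CPM. All 39 G2 and M genes were higher too, with a median fold of 28.0.

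Histone variants, which replace the bulk histones at given places in chromatin, split. Of 10 compared, 5 were at least 2-fold higher in cycling SLC pre-B than in small pre-B and none lower, where 16.2% and 19.2% of all features were. H2afx, a variant marked at DNA breaks, stood at 860 against 64.1 CPM, and H2afz at 3051 against 473. H3f3a and H3f3b, the H3.3 genes, stood at 4029 against 5739 and 3349 against 6611. Genes named Hist3h and Hist4h are histone genes too but lie outside the rule for members. Of these, Hist3h2a, an H2A gene of the third histone cluster, was lower in cycling SLC pre-B, at 72.9 against 264 CPM (0.277-fold, 0.259 to 0.295). Hist3h2ba stood at 59.0 against 75.8 CPM and Hist4h4 at 5.62 against 4.90, neither past 2-fold.

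Over the 15 gates, on log2(CPM + 1), the genes outside the members most correlated with the summed members were Cenpn (Pearson r = 0.980), Lbr (0.978), H2afv (0.976), Paxip1 (0.971), Ssrp1 (0.970), Fbxo5 (0.966), Suv39h1 (0.965), Smc3 (0.964), Hnrnpa2b1 and Aurkb (both 0.962), among 5970 genes with a mean of at least 20 CPM. The gates share 1 library and differ in depth, so this is a description. Among the members Hist1h2ae was closest to the sum at 0.992, and Hist2h4 (0.288), Hist1h1c (0.370) and Hist2h2be (0.503) were farthest.

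Members with fewer than 100 UMIs were Hist1h1t (33 UMIs), the testis H1 gene, Hist2h2aa2 (4), Hist1h2aa (2), Hist1h2bq (1) and Hist1h2ba (0). The count of 0 for Hist1h2ba allows up to 0.0241 CPM over all cells kept. Hist1h2aa and Hist1h2ba are known as testis histone genes.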

How the data were processed

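The authors' deposited mouse table holds raw counts of UMIs for each gene in each barcode, made with Cell Ranger on mm10 per the submitters' processing notes. For its version, its annotation and its handling of reads that fit several genes, the sources used here give nothing. The filter asked for 300 genes or more and 10% mitochondrial UMIs or fewer (13440 cells passed), and 173 doublets called by Scrublet (scanpy 1.11.5) were removed. Gates and CPM used raw UMI counts summed per gate. Intervals are exact (Poisson for CPM, Clopper-Pearson for shares, conditional binomial for ratios) and cover counting error only. A count of 0 was set to 3 counts in folds. Fold counts were tested on simulated data. These were Poisson counts for a single pair of gates, without the spread between cells or animals, so they do not cover that spread. Sequences and positions come from GENCODE M21, which matched all 64 members; Hist1h2aj and Hist1h2al of that annotation were not analysed here. All members with at least 100 UMIs could be named, and of each gene list the 10 with most UMIs and any single gene behind a count. Members and lists were chosen with earlier results of these data known. The split of the lowest S range, the split of the variant list and the 8000 to 20000 UMI range were added after the data were seen. The alternatives were other cell filters, doublets kept, Mki67 at 3 UMIs or Top2a for cycling, stage genes at 2 UMIs, a 95% lineage share, cells weighted equally, the sum without Hist1h2ae, other fold and UMI limits, and other S lists.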

Additional observations from a re-analysis of the deposited data

Results flagged for a closer look

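Between Mki67-positive and Mki67-negative gates, Hist1h1c stood lower in some B stages and higher in another, with counting intervals that did not include 1. It was 0.286-fold in cycling SLC pre-B against small pre-B and 0.874-fold in cycling pro-B against resting pro-B, but 1.33-fold in cycling no-SLC Ms4a1-positive cells against Ms4a1 B. These are folds of summed CPM. Per cell the mean was higher in the cycling gate for SLC pre-B (4.70 against 3.48 UMIs) and for pro-B (3.48 against 1.48). At 2000 UMIs a cell, Hist1h1c was found in 30.7% against 49.6% of cells for the first pair and in 30.4% against 25.1% for the second, so the lower value in cycling pro-B holds by CPM only. For the third pair the share at 2000 UMIs was 30.1% (25.3% to 35.3%) against 25.7% (24.1% to 27.4%), with intervals that overlapped. The pro-B pair and the third pair thus differed in direction by CPM only. Small pre-B also differs from cycling SLC pre-B in stage. Set against resting SLC pre-B, cycling SLC pre-B had Hist1h1c at 186 against 351 CPM. At 2000 UMIs it was found in 30.7% against 35.9% of these cells, with intervals that overlapped. The difference between stages was not tested, since there is 1 library. Cd74 stood at 8474 CPM in Ms4a1 B and at 425 in small pre-B, where 53.5% of cells had it. The part of mature cells in either gate was not tested. No other member had counting intervals on opposite sides of 1 between pairs of a cycling and a resting gate.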

How the results depend on the processing

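No paired analysis was possible because there is 1 mouse library. The values below lie outside the counting interval of the reported value, which is narrow at this depth; the cause of these shifts was not tested. Gates are in the order pro-B, SLC pre-B, no-SLC Ms4a1-negative and no-SLC Ms4a1-positive unless named. With at least 500 genes and at most 5% mitochondrial UMIs, the cycling levels were 6735, 6688, 11269 and 6703 CPM, with 1693 in small pre-B, 1573 in cycling T, and a ratio to Mki67 of 10.1 in no-SLC Ms4a1-negative cells. With doublets kept, the Ms4a1-positive gate stood at 5627 and cycling T at 1715 CPM (ratio 5.06). With Mki67 at 3 UMIs, the levels were 7826, 6863, 12356 and 8898 CPM and the Mpo ratio 13.3; cycling T held 33 cells and gave no value. With Top2a the levels of the last 3 gates were 6679, 10582 and 4491 CPM, small pre-B 1666 and cycling T 1024, and the ratios to Top2a 6.93, 6.43, 7.43 and 6.11, with 3.74 in T and 9.63 in Mpo. With stage genes at 2 UMIs, the levels were 6183 and 5853 CPM in pro-B and SLC pre-B and 3369 in the Ms4a1-positive gate, and the ratios 8.65 (SLC pre-B) and 6.42 (Ms4a1-positive). With a 95% lineage share, the no-SLC gates stood at 10908 and 5573 CPM and cycling T at 1057 (ratio 4.31). With cells weighted equally, the levels were 6332, 6958, 9456 and 3917 CPM, with 1703 in small pre-B and 957 in cycling T, and the ratios 10.2, 9.29 and 10.8 in the first 3 gates and 3.76 in T. Without Hist1h2ae, by construction lower, the levels were 5232, 5234, 8156 and 4367 CPM, with 1481 in small pre-B and 1263 in cycling T, and the ratios 7.49, 7.16, 7.99 and 6.65, with 3.93 in T and 11.8 in Mpo. In cells of 8000 to 20000 UMIs, an alternative chosen after seeing the data, the levels were 7777, 8612, 12771 and 7157 CPM and the ratios 10.1 (SLC pre-B) and 11.1 (no-SLC Ms4a1-negative). The no-SLC Ms4a1-negative gate was the highest cycling B gate under each of these settings, at 1.36 to 1.83 times the SLC pre-B level. Of 53 recomputed counts of members past 2-fold, 7 moved by over 1.5 times: in T cells 19 of 45 with Top2a (2.96% of all features), 19 of 36 with a 95% lineage share (3.82%), 20 of 45 at 3-fold (2.13%) and 18 of 24 with at least 100 UMIs (2.13%), where fewer members were compared; in no-SLC Ms4a1-negative against SLC pre-B 26 of 59 with stage genes at 2 UMIs (9.62%) and 1 of 59 at 3-fold (2.14%); and in pro-B against SLC pre-B 2 of 62 with no limit on UMIs beyond 1 (20.6%). Hist1h1c in cycling SLC pre-B stayed below small pre-B, at 0.205-fold to 0.288-fold. Thinned to 4000 UMIs, the shares of cells with a member UMI were 97.0%, 97.9%, 99.0% and 89.8%, with 83.0% in cycling T and 96.6% in small pre-B. With an S list free of histone-related genes and at least 20 UMIs, the 5 ranges stood at 10280, 10660, 10221, 6171 and 1620 CPM, and in cycling SLC pre-B alone at 8946, 8336, 8127, 5516 and 1694. Cycling and resting Mpo progenitors could not be compared, since 28 resting cells were found.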

Other observations

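Within the lowest S range, 524 cells were split into 4 groups of 131 by the share of Ccnb1, Cdc20 and Plk1, genes of late G2 and mitosis, in their G2 and M UMIs. This split was chosen after the data were seen. From the lowest share to the highest, the summed histone level was 14561, 12876, 9485 and 3201 CPM, at median depths of 13342, 13347, 14992 and 11193 UMIs. The median cell stood at 14429, 14810, 9483 and 1815 CPM. Hist1h1b, the H1.5 gene, stood at 949, 687, 518 and 147 CPM and Hist1h2ap at 2513, 2209, 1673 and 415. Hist1h1c stood at 627, 599, 459 and 316, and the H2B gene Hist1h2bc at 456, 548, 575 and 283, so both were lower in the last group by less than Hist1h1b was.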
